A study of Mus musculus with 24 samples.

Results

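Described here are 38 genes of intraflagellar transport and the BBSome, the machinery that moves proteins along and through cilia, in mouse airway epithelium exposed to cigarette smoke. They were taken by gene symbol from a table of normalised read counts for 25239 genes, and all 38 were found in it. Each had a mean of at least 10 normalised counts, so the 38 were tested together with 13549 genes in all. The members comprise 7 subunits of the core of the IFT-B complex and 5 of its peripheral part, 6 subunits of the IFT-A complex with the adaptor Tulp3, 7 subunits of the BBSome, its 2 chaperonin-like assembly factors Bbs10 and Bbs12, the GTPases Arl6 and Arl3, 4 kinesin-2 genes and 4 dynein-2 genes.

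Tracheal epithelial cells of FVB/NJ mice, wild type and 7 to 8 weeks old, had been grown on 24 inserts, matured for 10 to 14 days with their upper side facing air, and sequenced for RNA. Female and male cultures were each exposed for 10 days to humidified air or to cigarette smoke, 2 cigarettes burning for about 8 minutes per exposure, with 6 inserts in each of the 4 groups. Since donors are not named in the labels, each sex may come from a single preparation of cells and its inserts may be technical repeats. A p-value then covers no more than the variation from insert to insert, and sex and preparation cannot be told apart.

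Cilia are built and kept by trains of protein complexes that run along their microtubules. IFT-B trains are drawn toward the tip by kinesin-2 motors, IFT-A serves the return run driven by dynein-2, and the BBSome rides on the trains as an adaptor that carries membrane proteins, receptors among them, out of the cilium. In the airway this traffic builds the motile cilia of multiciliated cells, and it also serves the single primary cilium of other cells, so its genes are not particular to one cell type.

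A set of promoters is shown first because RFX transcription factors, known regulators of ciliary genes, bind a motif called the X-box. The motif searched was GTTNCC, any 2 bases and GGNAAC, where N is any base. The letters read the same on both strands, and at most 1 mismatch was allowed among the 10 fixed letters, within 250 bases before and 50 bases after each gene's start. RefSeq promoters on GRCm38.p6 matched 34 of the 38 members, and none was held for Dync2li1, Ift122, Ift80 and Ift81. The X-box was found for 5 of the 34 (14.7%), against 3.82% of 10735 tested genes and 2.89% of all 27025 genes with a promoter of that length. A forkhead motif, GTAAACA on either strand, was in 0 of the 34 and in 3.17% of the tested genes. A match is a description of the letters and not a bound site. The stretches that hold the X-boxes follow, 5′ to 3′, with the motif in capitals, ordered by mismatches and then by the female smoke response.
Bbs7, chr3:36613467-36613566, minus strand: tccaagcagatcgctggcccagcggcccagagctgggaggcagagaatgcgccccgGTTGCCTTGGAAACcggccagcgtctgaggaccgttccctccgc
Ift57, chr16:49699151-49699250, plus strand: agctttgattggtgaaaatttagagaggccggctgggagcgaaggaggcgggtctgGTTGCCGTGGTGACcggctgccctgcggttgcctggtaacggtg
Bbs1, chr19:4906598-4906697, minus strand: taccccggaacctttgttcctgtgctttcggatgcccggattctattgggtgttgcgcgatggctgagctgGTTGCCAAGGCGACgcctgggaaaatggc
Bbs4, chr9:59353464-59353493, minus strand: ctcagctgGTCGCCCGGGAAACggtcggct
Ift22, chr5:136908061-136908160, plus strand: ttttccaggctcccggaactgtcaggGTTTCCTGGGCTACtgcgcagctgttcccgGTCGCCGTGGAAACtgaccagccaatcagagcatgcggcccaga

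Bbs7 held the motif without a mismatch, at positions -121 to -108 with the first transcribed base as 0. The other 4 genes had 1 mismatch each, with the motif of Bbs1 beginning 1 base after its first transcribed base and Ift22 holding 2 copies. These 5 genes did not behave alike under smoke, since Ift57 and Bbs1 were among the members with the largest losses in female cultures and Ift22 was among those that did not pass the test, as given below.

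Between 16038813 and 24485024 reads per library fell in genes, for the 23 libraries with recovered read numbers. Markers of multiciliated cells were present in every group, with Foxj1, the master regulator of motile cilia, at medians of 5460.5 in female air, 1306 in female smoke, 1343 in male air and 846 in male smoke. Other cell types were not wholly absent. Of 6 fibroblast markers 1 passed the filter, Dcn, which changed by -4.52 ± 0.80 (log2) in female and -4.37 ± 0.80 in male smoke, while the collagen Col3a1 did not exceed 2.77 in any library. The summed level of the 6 ran from 144 to 469.6 in female air, 10.3 to 88.6 in female smoke, 83.2 to 342 in male air and 8.88 to 30.5 in male smoke. Of 6 leukocyte markers 4 were tested. Lyz2 and Csf1r fell and Cd68 rose in female smoke, Cd68 and Itgam rose in male smoke, and Ptprc, a marker of all leukocytes, did not exceed 8.31. Their summed level, most of it Lyz2, ran from 33633.5 to 131020 in female air, 5178 to 41786 in female smoke, 30324.5 to 40529.5 in male air and 5775 to 44348 in male smoke. The part of these cells in the results was not tested. The basal keratin Krt5 was present throughout, at medians of 80682, 167516, 46115 and 76530.1 in the same order.

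Female air insert 1 and female smoke insert 4 stood apart, with gene levels that moved with transcript length. Over 13538 tested genes with a known length, the deviation from the group median, the library itself included, was set against transcript length. The Spearman correlation was -0.670 in female air insert 1 and -0.431 in female smoke insert 4. Over the 38 members, with the deviation taken from the median of the other 5 inserts, it was -0.721 and -0.622. Those are 38 genes of 1 library each, which are not replicates. In female air insert 1 Ift27, with a longest transcript of 990 bases, lay 2.20 (log2) above the median of the other 5 inserts, and Dync2h1, with 13936 bases, lay at -1.54. Ttc8, with 2308 bases, was the lowest, at -2.88. In female smoke insert 4 the deviations ran from -1.97 to 0.66. Counts of members in female cultures are therefore given with all 24 libraries and with the 22 that leave these out. Single members are given over 22 libraries too where the call or the value differed most.

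**Figure D1:**
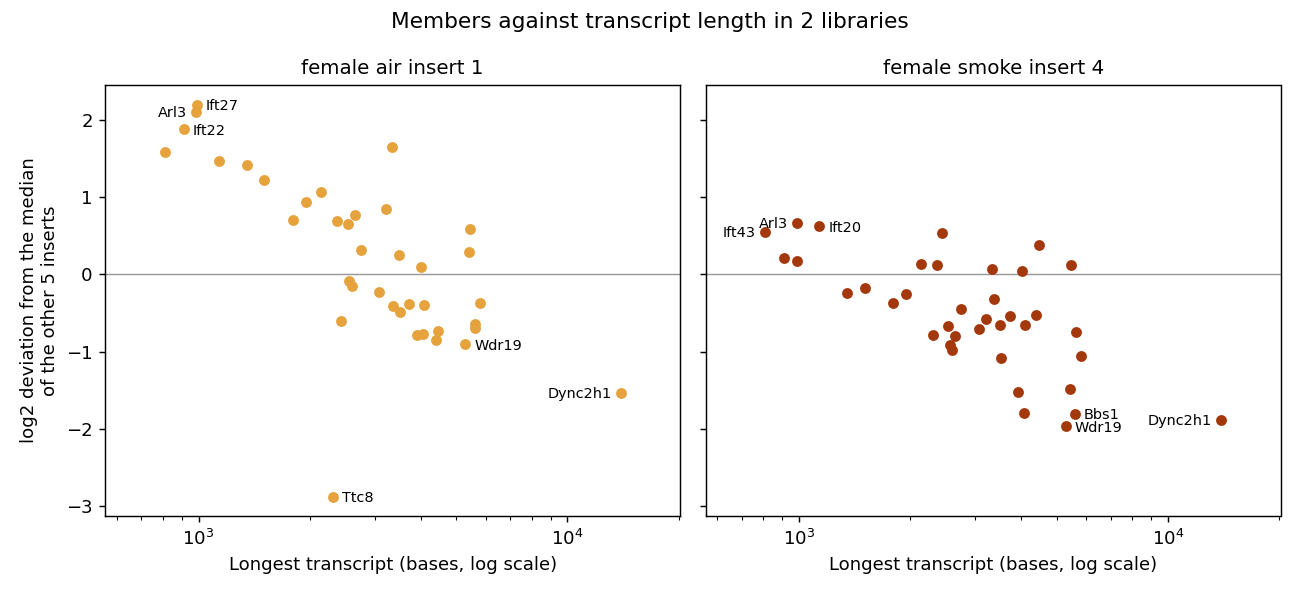
Deviation of each of the 38 members in female air insert 1 (left) and female smoke insert 4 (right) from the median of the other 5 inserts of the group (vertical axis, log2) against the length of the longest transcript (horizontal axis, bases, log scale). Points tend to lie lower at longer transcripts, with Spearman correlations of -0.721 and -0.622 and with exceptions such as Ttc8 at -2.88 in the left panel.

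Most of the machinery was lower in female cultures under smoke. Of the 38 members 31 fell and 0 rose (limma, adjusted p under 0.05, as throughout), where 19.3% of all 13549 tested genes fell and 15.5% rose. The median log2 fold change of the members was -0.85, against -0.0026 for all tested genes, and 37 of 38 lay below 0, against 50.3% of all genes. Over the 22 libraries 31 members fell again (background 23.8%), of which 29 were called in both fits, and the median was -0.67. Fitted on the 12 female libraries alone, 22 fell (background 11.3%). No smoke library reached the range of the air libraries for 7 members, all lower in smoke, against 5.75% of all genes, and for 15 members over the 22 libraries (12.9%).

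**Figure D2:**
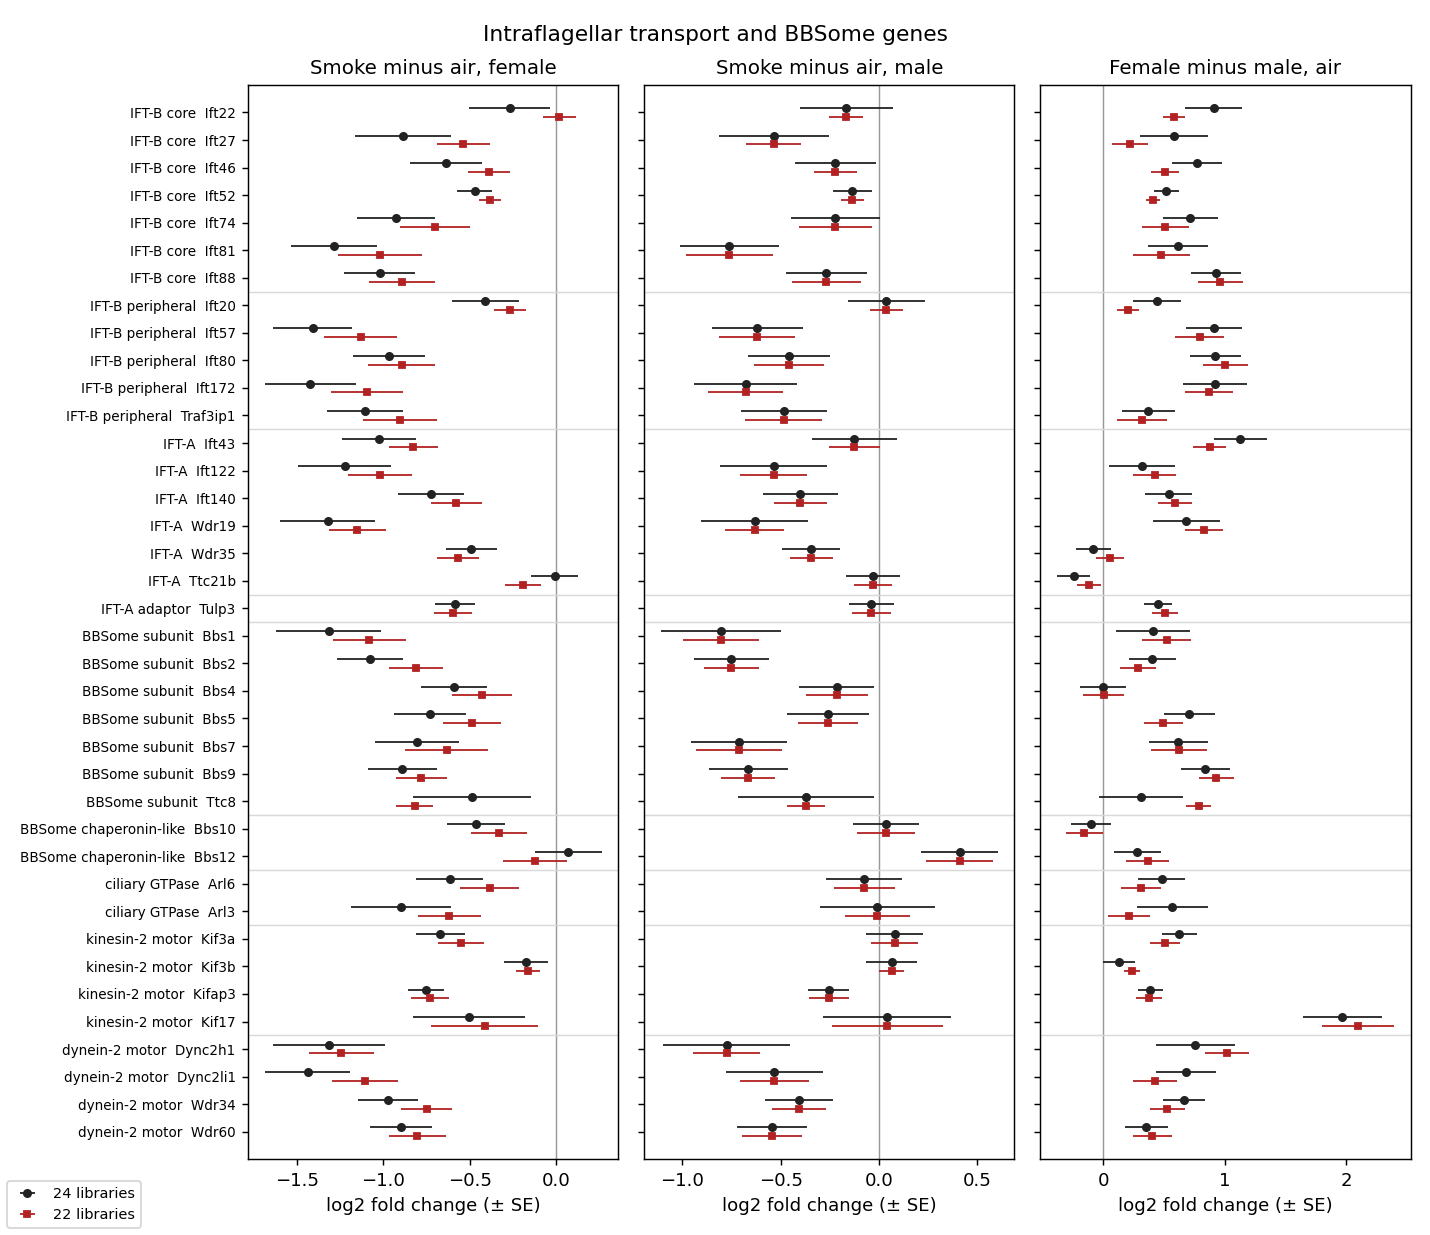
Log2 fold change of each member with its standard error (horizontal axis) for smoke minus air in female cultures (left), smoke minus air in male cultures (middle) and female minus male in air (right). Members are grouped by role, black circles use 24 libraries and red squares the 22 left without the libraries with a length trend. In female cultures 37 of 38 circles lie left of 0.

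Markers of multiciliated cells were lower in the same libraries. Of 18 such markers 16 were in the table, and 14 of these fell in female smoke (14 without the 2 libraries) at a median of -2.60 (-1.66). The share of all genes that fell was 19.3% (23.8%). Their summed level ran from 26707 to 45400 in female air and from 12923 to 29935 in female smoke, and the axonemal dyneins were at or near 0 in female smoke insert 4 (Dnah9 at 0, with Dnah5 at 2.40). A sum is weighted to the most abundant genes and can hide the others. In female smoke insert 4 the median of the markers lay at -6.29 (log2) from male air, though no female smoke sum was under 12923. In bulk samples fewer multiciliated cells and less RNA per cell cannot be told apart, and the part of these markers in the loss was not tested.

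In the core of IFT-B 6 of 7 members fell in female smoke. Ift81, which binds tubulin cargo together with Ift74, changed most (mm10 chromosome 5, 122550204 to 122614544). Its normalised count ran from 715 to 1728 (median 1025) in female air and from 278 to 793 (median 391) in female smoke. Smoke inserts 2 and 3 were the highest of their group, at 793 and 729, and exceeded only air insert 4, at 715. The change was -1.29 ± 0.25 (SE, adjusted p = 0.000586), and -1.02 ± 0.24 without the 2 libraries. Ift88, a scaffold subunit needed to build cilia, changed by -1.02 ± 0.21, Ift74 by -0.93 ± 0.23 and the small GTPase Ift27, which acts with the BBSome in cargo exit, by -0.89 ± 0.28. Ift27 moved to -0.54 ± 0.15 without the 2 libraries, with adjusted p = 0.00794. Ift46 and Ift52, which link the parts of the core, changed by -0.64 ± 0.21 (-0.39 ± 0.12 without the 2 libraries) and -0.47 ± 0.10. The call of Ift46 was lost without female smoke insert 1 (adjusted p = 0.0543). For Ift52 the groups did not overlap, at 1019 to 1838 (median 1167) against 791 to 983 (median 925).

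Ift22, a GTPase-like subunit of the core, was the exception. It ran from 363 to 1681 (median 461) in female air and from 379.9 to 515 (median 449) in female smoke, with air insert 1 alone above 515. The difference was -0.27 ± 0.24 (SE, adjusted p = 0.412), and without the 2 libraries it was 0.02 ± 0.09 (SE, adjusted p = 0.874). Of 7 core members 1 fell in male smoke (12.2% of all genes did), again Ift81. With 22 libraries 2 did so (24.7%), Ift27 being the other. These counts lay near the share of all genes. Ift81 ran from 587 to 797 (median 737) in male air and from 232 to 557 (median 447) in male smoke, with no overlap, and changed by -0.76 ± 0.25 (SE, adjusted p = 0.0315). Male smoke insert 1 held the lowest value. Ift27 changed by -0.53 ± 0.28 in male cultures, with adjusted p = 0.178 over 24 libraries and 0.00411 over 22, and its 6 smoke libraries all lay below its 6 air libraries.

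The peripheral IFT-B subunits fell in 4 of 5 cases in female smoke, and in 5 of 5 without the 2 libraries. Ift172, the long subunit that takes part in the turnaround at the ciliary tip (mm10 chromosome 5, 31253279 to 31291114), ran from 1535 to 2536 (median 2261) in female air and from 304 to 1598 (median 772) in female smoke. Smoke inserts 2 and 3, at 1598 and 1323, were high for their group, and insert 2 alone exceeded an air library, insert 4. The change was -1.42 ± 0.26 (SE, adjusted p = 0.000385), or -1.10 ± 0.21 without the 2 libraries. Ift57, whose promoter is shown above, ran from 578 to 1213 (median 784) in air and from 173 to 540.0 (median 260.0) in smoke with no overlap, and changed by -1.41 ± 0.23 (SE, adjusted p = 0.000134). Ift80 and the microtubule-binding Traf3ip1 changed by -0.97 ± 0.21 and -1.11 ± 0.22. Ift20, which also links transport to the Golgi, moved least. It ran from 712 to 2226 (median 846) in female air and from 584 to 1027 (median 694) in female smoke with overlap, at -0.41 ± 0.19 (SE, adjusted p = 0.107) over 24 libraries and -0.27 ± 0.09 (SE, adjusted p = 0.0245) over 22.

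In male smoke 0 of these 5 peripheral members passed over 24 libraries by limma (12.2% of all genes fell). There 4 had an unadjusted p under 0.05, with 0 called by edgeR and 2 by DESeq2. Over 22 libraries 4 fell (24.7%). For Ift172 the male air libraries ran from 1022 to 1249 (median 1142) and the male smoke libraries from 473 to 909.6 (median 762), with no overlap. Its fold change of -0.68 ± 0.26 had adjusted p = 0.0668 over 24 libraries and 0.0067 over 22. Ift57 behaved likewise, at -0.62 ± 0.23 with adjusted p = 0.0569 and 0.0131. Ift20 stood at 0.04 ± 0.19 in male cultures.

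Among IFT-A subunits 5 of 6 fell in female smoke. Wdr19, a subunit of the IFT-A core (mm10 chromosome 5, 65199696 to 65260415), ran from 426 to 885 (median 771) in female air and from 93.5 to 486 (median 326) in female smoke. The lowest air value was insert 1 and the lowest smoke value insert 4, both libraries with a length trend, and without them the ranges were 657 to 885 (median 801) and 228 to 486 (median 369.7), with no overlap. The change was -1.32 ± 0.27 (SE, adjusted p = 0.001) and -1.15 ± 0.16 (SE, adjusted p = 2.79e-05). Ift122 and Ift140, the other long core subunits, changed by -1.22 ± 0.27 and -0.72 ± 0.19, and Wdr35 by -0.49 ± 0.15. The small subunit Ift43 ran from 491 to 1569 (median 558) in air and from 234 to 451 (median 323) in smoke with no overlap, and changed by -1.02 ± 0.21 (SE, adjusted p = 0.00109). Ttc21b, an outer IFT-A subunit, ran from 218 to 404 (median 356) in female air and from 279 to 412 (median 335) in female smoke with overlap, at -0.01 ± 0.14 (SE, adjusted p = 0.977), and at -0.19 ± 0.10 (SE, adjusted p = 0.142) without the 2 libraries.

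In male smoke 0 of 6 IFT-A subunits passed over 24 libraries by limma (12.2% of all genes fell). There 3 had an unadjusted p under 0.05, with 0 called by edgeR or DESeq2. Over 22 libraries 4 fell (24.7%), namely Ift122, Ift140, Wdr19 and Wdr35. Wdr19 ran from 403 to 471 (median 443) in male air and from 217 to 336 (median 304) in male smoke with no overlap, and its change of -0.63 ± 0.27 had adjusted p = 0.101 and 0.00208 in the 2 fits. Tulp3, the adaptor through which IFT-A brings receptors into cilia, had unlike estimates in the culture sets. It ran from 826 to 1224 (median 1058) in female air and from 539.7 to 847 (median 662) in female smoke, and only smoke inserts 2 and 3 exceeded an air library, insert 1. The female change was -0.59 ± 0.12 (SE, adjusted p = 0.000663). In male cultures Tulp3 ran from 663 to 828 (median 748) in air and from 663 to 791 (median 724) in smoke with overlap, at -0.04 ± 0.12 (SE, adjusted p = 0.845).

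BBSome subunits fell in 6 of 7 cases in female smoke and in 7 of 7 without the 2 libraries. Bbs1, the subunit through which Arl6 recruits the BBSome to membranes (mm10 chromosome 19, 4886882 to 4906627), ran from 225 to 419 (median 339.7) in female air and from 39.6 to 247 (median 139.8) in female smoke. Smoke inserts 2 and 3 exceeded air insert 1 alone. The change was -1.31 ± 0.30 (SE, adjusted p = 0.00229), and -1.08 ± 0.21 without the 2 libraries, where the groups did not overlap. Bbs2, part of the BBSome core, ran from 314 to 598 (median 381) in air and from 111 to 284 (median 178) in smoke with no overlap, and changed by -1.08 ± 0.19 (SE, adjusted p = 0.000273). Bbs9 changed by -0.89 ± 0.20, Bbs7 by -0.80 ± 0.24, Bbs5 by -0.73 ± 0.21 (-0.49 ± 0.17 over 22 libraries) and Bbs4 by -0.59 ± 0.19. The call of Bbs4 was lost without female smoke insert 4 (adjusted p = 0.0541).

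Ttc8, the seventh subunit, turned on 1 library. It ran from 65.4 to 539 (median 472) in female air, where insert 1 held the lowest value and the other 5 lay at 433 or above, and from 149 to 340.2 in female smoke. With 24 libraries the change was -0.49 ± 0.34 (SE, adjusted p = 0.294). With 22 libraries it was -0.82 ± 0.11 (SE, adjusted p = 1.39e-05) and the groups did not overlap.

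In male smoke 3 of 7 BBSome subunits fell over 24 libraries (12.2% of all genes), the largest count of any role there, and 5 fell over 22 (24.7%). Bbs2 ran from 264 to 369 (median 292) in male air and from 148 to 219 (median 173) in male smoke with no overlap, and changed by -0.75 ± 0.19 (SE, adjusted p = 0.00698). Bbs9 ran from 254 to 383 (median 295) and from 151 to 229.8 (median 197), again with no overlap, and changed by -0.66 ± 0.20 (SE, adjusted p = 0.0198). For Bbs7 the ranges were 153 to 216 (median 194) and 64.5 to 163 (median 126), with smoke insert 5 (163) above air insert 4 (153), and the change was -0.71 ± 0.24 (SE, adjusted p = 0.0389). Its call was lost with scaling by the library total (adjusted p = 0.0501) and with quantile scaling (0.0692). Bbs1 had the lowest male fold change of the 38, at -0.80 ± 0.30, with adjusted p = 0.0604 over 24 libraries and 0.0023 over 22.

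The chaperonin-like proteins Bbs10 and Bbs12, which help to fold and assemble the BBSome, were among the members with the lowest counts. Bbs10 ran from 59.1 to 85.2 (median 71.1) in female air and from 38.4 to 66.7 (median 52.8) in female smoke with overlap. Its change of -0.46 ± 0.17 (SE, adjusted p = 0.0336) passed over 24 libraries and not over 22, at -0.33 ± 0.16 (SE, adjusted p = 0.101). It was also lost without female air insert 2 (adjusted p = 0.0587) or 3 (0.0647), without female smoke insert 4 (0.077) or 5 (0.0875), and with quantile scaling (0.811). Bbs12 ran from 60.9 to 99.8 (median 89.4) and from 61.5 to 125 (median 86.3), with a change of 0.07 ± 0.19 (SE, adjusted p = 0.813). In male cultures Bbs12 ran from 45.3 to 81.1 (median 74.9) in air and from 71.0 to 127 (median 88.5) in smoke with overlap, at 0.41 ± 0.19 (SE, adjusted p = 0.135), the highest male fold change of the 38. Bbs10 stood at 0.04 ± 0.17 there.

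Both small GTPases fell in female smoke over 24 libraries. Arl3, which releases lipid-anchored cargo inside the cilium, ran from 239 to 1305 (median 304) in female air and from 159.9 to 268 (median 201) in female smoke, and without air insert 1 the air range ended at 399. Its change was -0.90 ± 0.29 (SE, adjusted p = 0.0197) and, over 22 libraries, -0.62 ± 0.18 (SE, adjusted p = 0.00996). Arl6, which recruits the BBSome, ran from 315 to 916 (median 488) and from 267 to 445 (median 306) with overlap, and its change of -0.62 ± 0.19 (SE, adjusted p = 0.0172) did not pass over 22 libraries, at -0.38 ± 0.17 (SE, adjusted p = 0.0682). In male cultures Arl3 stood at -0.01 ± 0.29 and Arl6 at -0.07 ± 0.19, and neither passed in either fit.

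Of the 4 kinesin-2 genes 2 fell in female smoke. Kifap3, the accessory subunit of the heterotrimeric motor (mm10 chromosome 1, 163779583 to 163917107), had the smallest adjusted p of the 38. It ran from 849.9 to 1086 (median 968) in female air and from 475 to 719 (median 538) in female smoke with no overlap, and changed by -0.75 ± 0.10 (SE, adjusted p = 2.81e-05), or -0.73 ± 0.11 without the 2 libraries. Kif3a, 1 of the motor subunits, ran from 783 to 1617 (median 1087) and from 528 to 899.7 (median 643), with smoke inserts 2 and 3 above air insert 4, and changed by -0.67 ± 0.14 (SE, adjusted p = 0.0013). Its partner Kif3b, which is also used outside cilia, ran from 1019 to 1702 (median 1608) and from 868 to 1599 (median 1399.6) with overlap, at -0.17 ± 0.13 (SE, adjusted p = 0.325). Kif17, the homodimeric kinesin-2 motor, was the lowest member, at 19.8 to 40.0 (median 33.2) in female air and 9.59 to 31.3 (median 25.1) in female smoke, and stood at -0.50 ± 0.33 (SE, adjusted p = 0.245). In male cultures 0 of the 4 passed over 24 libraries by limma (12.2% of all genes fell). There 1 had an unadjusted p under 0.05, with 0 called by edgeR or DESeq2. Kifap3 alone fell over 22, by 0.25 ± 0.10 on the log2 scale, a count near the share of all genes (24.7%).

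All 4 dynein-2 genes fell in female smoke, in both fits. Dync2li1, the light intermediate chain (mm10 chromosome 17, 84626475 to 84655564), had the largest fold change of the 38 over 24 libraries. It ran from 392 to 1584 (median 617) in female air and from 183 to 364 (median 211) in female smoke. The groups did not overlap, and air insert 1 was far above the other 5, which ended at 652. The change was -1.44 ± 0.25 (SE, adjusted p = 0.0002), and -1.11 ± 0.19 without the 2 libraries, where Dync2h1, Wdr19 and Ift57 changed more. The heavy chain Dync2h1, the motor itself, ran from 345 to 1265 (median 992) and from 107 to 637 (median 367). Its lowest air library was insert 1 and its lowest smoke library insert 4, and the change was -1.32 ± 0.32 (SE, adjusted p = 0.00355) with them and -1.24 ± 0.19 (SE, adjusted p = 5.15e-05) without. The intermediate chains Wdr34 and Wdr60 changed by -0.97 ± 0.17 and -0.90 ± 0.18.

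In male smoke 1 dynein-2 gene passed over 24 libraries (12.2% of all genes fell) and all 4 fell over 22 (24.7%). Wdr60 ran from 539.9 to 747 (median 674) in male air and from 347 to 538 (median 466) in male smoke, the highest smoke value lying below the lowest air value, and changed by -0.54 ± 0.18 (SE, adjusted p = 0.0327). That call was lost with scaling by the library total (adjusted p = 0.0574). Dync2h1 ran from 425 to 631 (median 467) and from 236 to 386 (median 282) with no overlap, and its change of -0.78 ± 0.32 had adjusted p = 0.0896 over 24 libraries and 0.00123 over 22. Exons of Dync2h1 and of the gene Dcun1d5 on the opposite strand overlap by 296 bases, or 2.10% of the exon bases of Dync2h1, and Ift74 overlaps Lrrc19 by 62 bases. Whether strand was used in counting is not given in the sources used here.

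In male cultures fewer of the 38 members fell, and the number of calls depended on how the spread was estimated. With the spread shared by all 24 libraries 5 members fell and 0 rose, and 18 had an unadjusted p under 0.05. Of all genes 12.2% fell and 9.76% rose, so the count of 5 lay near the share of all genes. The median of the 38 was -0.31, against -0.0058 for all genes, and 32 of 38 lay below 0 (50.5% of all genes). Leaving out the 2 female libraries, which changes no male value and only the shared spread, 20 members fell (24.7%), and 22 fell in a fit of the 12 male libraries alone (24.1%). The 5 were among those 20, and the 20 were among the 22. The groups did not overlap for 13 members, all lower in smoke (14.2% of all genes). Bbs2 passed in each of the 24 fits that left out 1 library. The other 4 did not, with the highest adjusted p in the fit without male smoke insert 1 for each of them, 0.0981 for Ift81, 0.118 for Bbs7, 0.0548 for Bbs9 and 0.0914 for Wdr60. The count was 13 without female air insert 1 and 12 without female smoke insert 4. It was 1 without male air insert 3 or male smoke insert 1, 2 without male air insert 1, 2 or 5, and 3 without male smoke insert 2, 3 or 4. Of 16 multiciliated markers 0 fell over 24 libraries by limma, edgeR or DESeq2, with 0, 4 and 6 at an unadjusted p under 0.05. Over 22 libraries 8 fell. Their median was -1.20, and Tubb4b, a tubulin of many cell types, rose by 0.31 ± 0.11 (adjusted p = 0.0464). The part of these markers in the result was not tested.

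Within groups the level of the members differed between inserts. In female smoke inserts 2 and 3 were the 2 highest libraries for 30 of 38 members, and insert 4 was the lowest for 24. In male smoke insert 1 was the lowest for 26. The median of the members, as a log2 difference from the male air median of each gene, ran from -0.83 in insert 4 to 0.19 in insert 2 of female smoke and from -0.68 in insert 1 to -0.19 in insert 2 of male smoke. In air it ran from 0.19 to 0.69 in female inserts and from -0.13 to 0.09 in male inserts. The multiciliated markers gave the same libraries at the low end, with medians of -6.29 in female smoke insert 4 and -4.01 in male smoke insert 1, and of 1.24 and 0.83 in female smoke inserts 2 and 3. Genes of 1 library share its depth and cell content, so these values describe libraries. In male air inserts 1 to 3 all exceeded inserts 4 to 6 for 20 members. How many of all genes follow this order, or the orders of inserts given above, was not counted. These counts therefore have no background. With inserts 1 to 3 alone 6 members fell in female smoke and 5 in male smoke, and with inserts 4 to 6 alone 32 and 0 did. The share of all genes called in these fits was not counted, so the counts have no background. The member medians were -0.75 and -0.88 in female smoke and -0.48 and -0.22 in male smoke, in the same order. Female air insert 1 is in the first set and female smoke insert 4 in the second, both with a length trend. The labels name no batch that would set inserts 1 to 3 apart.

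**Figure D3:**
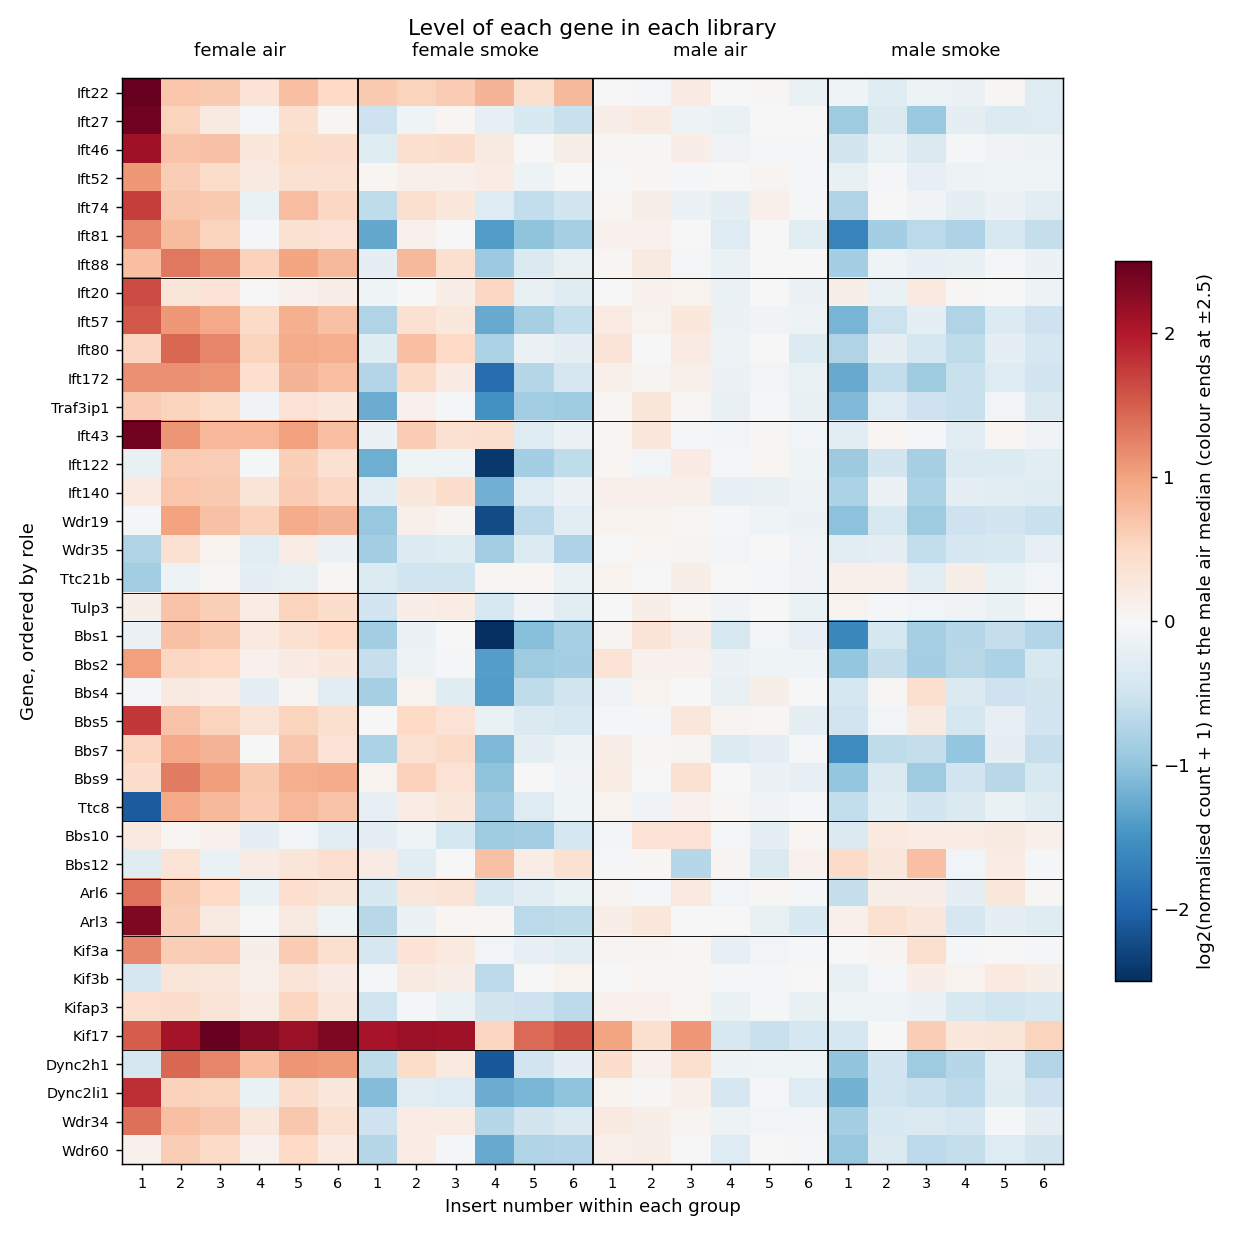
Level of each member (rows, ordered by role) in each of 24 libraries (columns, by group and insert number), as log2 of the normalised count plus 1 minus the median of that gene in male air. Red is above and blue below that median, with colours ending at 2.5 in either direction. Female air is red for most members, female smoke inserts 2 and 3 are redder than the other smoke inserts, and male smoke insert 1 and female smoke insert 4 are the bluest columns.

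**Figure D4:**
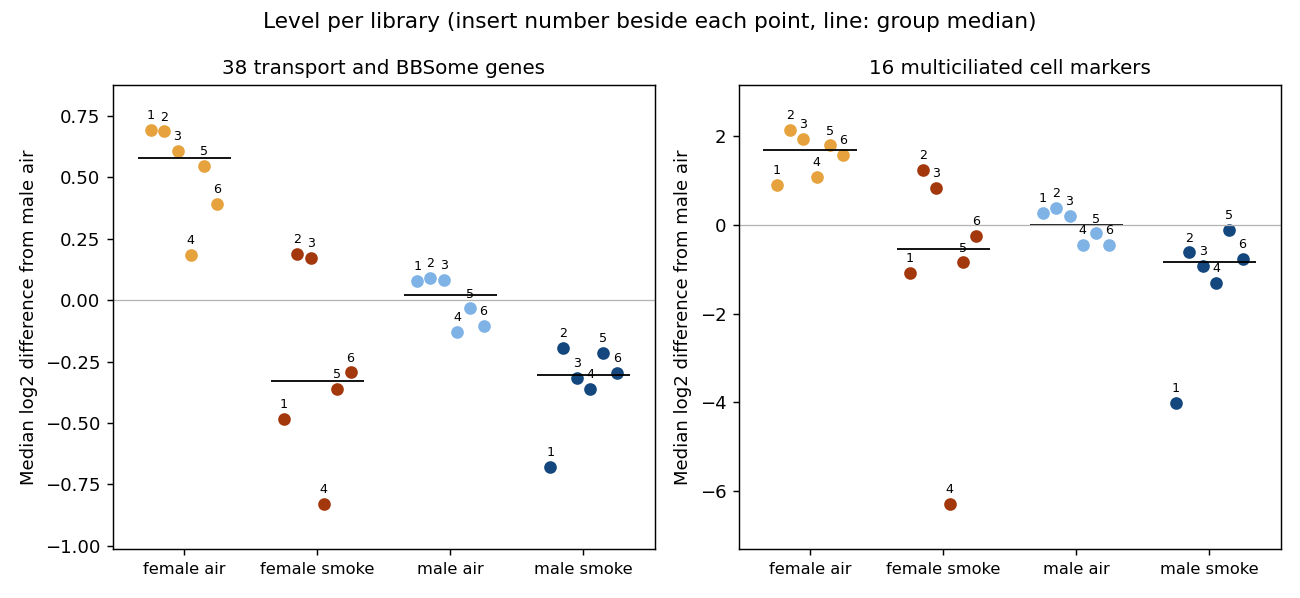
Median log2 difference from male air per library for the 38 members (left) and for 16 multiciliated cell markers (right), by group, with the insert number beside each point and a line at the group median. Female smoke insert 4 and male smoke insert 1 are the lowest of their groups in both panels, at -0.83 and -0.68 for the members and at -6.29 and -4.01 for the markers.

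Whether the response to smoke differed between the culture sets was tested as the female change minus the male change. Of 38 members 0 were called by limma over 24 libraries (1.03% of all genes were called in either direction), 12 had an unadjusted p under 0.05, and 0 were called by edgeR and 3 by DESeq2. The estimates lay below 0 for 37 of 38 (50.4% of all genes), at a median of -0.50 against -0.0027 for all genes, so that the loss was estimated as larger in female cultures. Over the 22 libraries the median was -0.35 and 3 members passed, all lower, against 2.49% of all genes. These were Ift43 at -0.70 ± 0.19 (SE, adjusted p = 0.0322), Kif3a at -0.63 ± 0.18 (SE, adjusted p = 0.0371) and Tulp3 at -0.56 ± 0.15 (SE, adjusted p = 0.0283). For each of them the male libraries in smoke and air overlapped, with Ift43 at 278 to 355 (median 292) in male air and 239 to 304 (median 281) in male smoke and Kif3a at 614 to 744 (median 706) and 678 to 929 (median 703). Members with the largest female losses did not pass, such as Dync2li1 at -0.91 ± 0.35 (SE, adjusted p = 0.236) and Ift172 at -0.74 ± 0.37 (SE, adjusted p = 0.403). The count was 14 with weights for library quality and 6 with inserts 4 to 6 alone, 2 when female air insert 1 or female smoke insert 2 was left out, and 1 when female air insert 4 was.

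Among the inserts kept in humidified air for the same 10 days, the machinery stood higher in female than in male cultures. In air 19 of 38 members were higher in female cultures (20% of all genes were) and 0 were lower (19% of all genes), at a median of 0.58 against 0.02 for all genes. Without the 2 libraries, of which only female air insert 1 enters this comparison, 25 were higher (28.3%), at a median of 0.50. The groups did not overlap for 15 members, all higher in female air (16.6%), and for 20 without air insert 1 (24.4%). Each of these counts includes Kif17, which passed the filter only through its female libraries, as given below. With a mean of at least 50, which removed Kif17, the median of the other 37 members was 0.57. The female air libraries are also the controls of the female smoke comparison, so the 2 sets of values are not independent. The multiciliated markers ran in the same direction by their medians, 1.64 over 24 libraries and 1.73 over 22. Of 16 markers 4 were higher over 24 libraries, which is near the share of all genes (20%), and 15 over 22 (28.3%). Their summed level was 14327 to 19821 in male air.

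Kif17 had the largest difference, but it passed the filter only through its female libraries. Its means were 31.9 in female air and 23.3 in female smoke. In male air and male smoke they were 8.21 and 7.72, below the limit of 10. Its own test therefore depends in part on the filter and is not used as support, though the counts in air given above include it. Kif17 ran from 3.94 to 14.4 (median 6.54) in male air against 19.8 to 40.0 (median 33.2) in female air, with no overlap. The difference was 1.97 ± 0.33 (SE, adjusted p = 4.24e-05). Within male air inserts 1 to 3 lay between 8.58 and 14.4 and inserts 4 to 6 between 3.94 and 4.50. Its female smoke libraries, at 9.59 to 31.3 (median 25.1), were also above the male smoke libraries, at 4.42 to 10.2 (median 7.84), except insert 4. Ift43 followed at 1.13 ± 0.21 (SE, adjusted p = 0.000211), from 278 to 355 (median 292) in male air, and moved to 0.88 ± 0.14 without the 2 libraries. Ift88 (421 to 552 (median 472) in male air, 702 to 1187 (median 885) in female air) differed by 0.93 ± 0.21 and Ift80 (303 to 485 (median 386) and 558 to 1052 (median 730.4)) by 0.92 ± 0.21, each with no overlap.

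Other members with the smallest p were Ift52 at 0.52 ± 0.10, Kif3a at 0.63 ± 0.14, Bbs9 at 0.84 ± 0.20, Ift57 at 0.91 ± 0.23, Tulp3 at 0.45 ± 0.12, Ift22 at 0.91 ± 0.24, Wdr34 at 0.66 ± 0.17 and Ift46 at 0.77 ± 0.21. For Ift22 and Ift46 air insert 1 raised the value, and they stood at 0.58 ± 0.09 and 0.51 ± 0.12 without it. Ttc21b had the lowest difference, at -0.24 ± 0.14 (SE, adjusted p = 0.167), and Bbs4 was level at -0.00026 ± 0.19. Scaling by the library total moved the median of all genes to -0.11, and the tests then placed 14 members higher, with the median of the members at 0.44.

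By group medians 35 of 38 members were highest in female air. The female smoke median lay below the male air median for 30 members, and the male smoke median lay below the male air median for 31. Female smoke and male smoke were not ordered alike across members, with the female smoke median at or above the male smoke median for 16. Per kilobase of the longest transcript, the male air medians ran from 1.67 for Kif17 to 633 for Ift20, with a median of 169 over the members. On that per-kilobase scale the BBSome subunits Bbs1, at 44.7, and Ttc8, at 121, stood below the IFT-B core subunits Ift22, at 316, and Ift52, at 366. Across the 38 members transcript length and the female smoke fold change had a Spearman correlation of -0.12, and -0.25 without the 2 libraries.

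Other genes of the same pathway fell in female smoke too. Of 16 tested further subunits of IFT, the BBSome and dynein-2, 8 fell and 0 rose. Over 22 libraries 9 fell and 2 rose, namely the dynein light chain Dynlrb1 and the chaperonin-like Mkks. Dynlrb2, another light chain, ran from 500.1 to 4433 (median 888) in female air and from 1.20 to 628 (median 155) in female smoke and changed by -3.13 ± 0.94 (SE, adjusted p = 0.0124), or -1.56 ± 0.55 without the 2 libraries. Tctex1d2, a dynein-2 light chain, changed by -1.17 ± 0.31 (SE, adjusted p = 0.00617), or -0.76 ± 0.20 without the 2 libraries. In male smoke 1 of the 16 fell, Ttc30b, and over 22 libraries 3 fell and 2 rose. The shares of all genes that fell, for these and the following lists, were 19.3% in female and 12.2% in male smoke, and 23.8% and 24.7% over 22 libraries. Of 19 genes of the transition zone, the gate at the base of the cilium, 16 fell in female smoke and 3 in male smoke, the male count lying near the share of all genes (15 and 9 over 22 libraries). Nphp4 had the largest female change over 24 libraries, at -2.38 ± 0.86 (SE, adjusted p = 0.034), and was at 0 in female smoke insert 4. Without the 2 libraries it changed by -1.23 ± 0.39, and Tmem17 changed by -1.34 ± 0.31 with them. In male smoke Cc2d2a fell by 1.23 ± 0.24 on the log2 scale.

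Of 14 tested genes for lipid-anchored cargo and ciliary kinases, 7 fell in female smoke and 2 in male smoke, the latter again near the share of all genes (11 and 6 over 22 libraries). Among those called in female smoke the kinase Mok changed most, at -1.47 ± 0.31 (SE, adjusted p = 0.00114), while the kinase Mak stood at -2.08 ± 0.81 (SE, adjusted p = 0.0505), and the cargo-release GTPase Arl2 fell in both, at -0.74 ± 0.25 in female and -0.79 ± 0.25 in male cultures. Among 13 tested regulators of the ciliary programme, RFX and FOXJ1 factors included, 7 fell and 2 rose in female smoke, and 4 fell and 1 rose in male smoke. Over 22 libraries 8 fell and 2 rose in female smoke, and 8 fell and 3 rose in male smoke. With 24 libraries E2f4 rose in both and Rfx7 in female smoke, and the 4 that fell in male smoke were Gmnc, Mcidas, Myb and Trp73. Gmnc, which starts the multiciliated programme, ran from 97.9 to 263 (median 152) in male air and from 6.18 to 33.6 (median 17.9) in male smoke, with no overlap, and changed by -3.13 ± 0.64 (SE, adjusted p = 0.00142) in male and -2.48 ± 0.64 (SE, adjusted p = 0.00513) in female cultures. Mcidas, of the same list, changed by -2.81 ± 0.73 and -2.53 ± 0.73. Rfx2 and Rfx3, factors that bind the X-box, fell in female smoke by 0.89 ± 0.24 and 1.21 ± 0.29 on the log2 scale and stood at -0.48 ± 0.24 (SE, adjusted p = 0.158) and -0.55 ± 0.29 (SE, adjusted p = 0.181) in male smoke. Over 22 libraries both passed in male smoke, with adjusted p = 0.0118 for Rfx2 and 0.0228 for Rfx3.

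Markers of other cells moved too. In female smoke 5 of 8 club cell and 5 of 6 ionocyte markers fell, 3 of 6 tuft cell markers fell, and of 8 basal cell markers 1 rose, Krt5 at 1.06 ± 0.19, and 1 fell, Pdpn. In male smoke 2 club, 5 ionocyte and 1 tuft cell markers fell, and 3 basal markers rose and 2 fell. Over 22 libraries 5 club, 4 ionocyte and 2 tuft cell markers fell in female smoke and 1 tuft cell marker, Avil, rose. In male smoke 4 club, 5 ionocyte and 3 tuft cell markers fell and 1 club cell marker, Krt8, rose. Summed basal markers ran from 180521 to 275111 in female air and from 259155 to 417371 in female smoke, and from 176278 to 222390 and 129404 to 267361 in the male groups. Their part in the losses of the 38 members was not tested. As a second count, the authors' deposited tables, each made from the 12 libraries of its own comparison, were read for the 38 members. They called 27 lower in female smoke, 21 lower in male smoke and 27 higher in female air than in male air. No member was called the other way. They hold no adjusted p for Ift22 and Ift27 in female smoke and for Ift27 in air. The share of all genes called there was not counted, so these counts have no background.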

How the data were processed

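Groups of 6 inserts were taken from the labels' sex and treatment. The main values are normalised counts deposited by the authors, a signal. In each library every value was a whole multiple of 1 step (tolerance 0.001 reads, wider in proportion to the count for abundant genes), so whole reads were recovered for 23 libraries. The step of male smoke insert 5, 0.989, lay too near 1 to show this, and the count tests leave that library out. Per the submitters' processing notes the tools were FastQC 0.11.9, Trimmomatic 0.38.0, HTSeq and DESeq2, and the builds GRCm38 and mm10. The sources used here give neither aligner nor strand setting. The authors also deposited DESeq2 tables with log2 fold changes, Wald scores, p-values and mm10 positions (unit other). The deposited log2 signs were turned so that positive means higher in smoke or in female cultures, and the means in these tables were not used here.

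Genes with a mean of at least 10 were kept (13549 of 25239), and log2 of the normalised count plus 1 was fitted with limma 3.58.1 in R 4.3.3 (eBayes with a trend, 1 term per group, 24 libraries, two-sided). A call was a Benjamini-Hochberg adjusted p under 0.05 over all genes tested. Fold changes are on this scale, which understates the change of low genes. The script was checked on simulated counts. Alternatives were TMM, library total and quantile scaling, pseudocounts of 0.5 and 5, array quality weights, robust eBayes, no filter or a mean of at least 50, a block for the insert number, fits of the compared groups alone, inserts 1 to 3 or 4 to 6, each of the 24 libraries left out, and edgeR 4.0.16 and DESeq2 1.42.0 on recovered reads.

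The members and lists were chosen with earlier results of these data known. Values in each group are given for the members with the largest and smallest absolute female smoke change in each role, for members called in male smoke, in the difference or in air (at most 12 each, by p), for any member called higher, and for the 2 largest called changes of each further list. At most 6 promoters were shown. Some members and all other genes were named after their values were seen, among them Foxj1, Rfx2, Rfx3, Ptprc, Col3a1, Tubb4b, Cc2d2a, Arl2, Evc and Evc2.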

Additional observations from a re-analysis of the deposited data

Results flagged for a closer look

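Each member was examined in each group of 6 for a library whose distance from its nearest neighbour took up more of the group's range than Dixon's 95% limit allows. Of 152 such checks 18 singled out a library, and 14 of the 18 were female air insert 1, a library whose gene levels moved with transcript length. Chance gives about 1 in 20 for a single check, but the members share the same 24 libraries, so the checks are not independent. The share of all genes singled out was not counted. In female air insert 1, 4961 of 13538 genes lay over 2-fold from the group median.

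Female air insert 1 was far above the other 5 inserts for 11 members. Ift46 stood at 4757 there, against 1315 to 1826 in the other inserts, and Ift20 at 2226 against 712 to 916. The remaining 9 were Wdr34 at 1701, Ift27 at 1698, Ift22 at 1681, Dync2li1 at 1584, Ift43 at 1569, Arl3 at 1305, Ift74 at 1241, Bbs2 at 598 and Bbs5 at 563 normalised counts. For 3 members it was far below, with Ttc8 at 65.4 against 433 to 539, Ttc21b at 218 against 339 to 404 and Kif3b at 1019 against 1491 to 1702.

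In male smoke insert 1 Ift88 stood at 261 in a group with a median of 421, and Bbs10 at 55.7 against a median of 82.1. In male air insert 2 Ift43 stood at 355 against a median of 292. In male smoke insert 3 Kif3a stood at 929 against a median of 703. The result for Ttc8 is given above with and without female air insert 1, since its call depended on that library.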

How the results depend on the processing

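No called fold change of a member reversed under any alternative. Shares of all genes called were counted only for the limma fits of 24 libraries, of 22 libraries and of the compared groups alone. Counts of members under the other alternatives, here and above, therefore have no background. Among 6190 single values set against the fit of 24 libraries, 112 had the opposite sign, each with no call in either fit. In female smoke 31 members fell, with 6 for inserts 1 to 3 alone and 32 for inserts 4 to 6 alone, a difference whose cause was not tested. The number ran from 30 to 33 with 1 library left out.

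In male smoke 5 members fell, a number near the share of all genes (12.2%). The number was 20 without female air insert 1 and female smoke insert 4, 19 with edgeR on recovered reads without them (chosen after seeing the data), 22 with male libraries alone, 23 with array quality weights, 9 with DESeq2, 3 with library total scaling and 0 with inserts 4 to 6 alone. It ran from 1 to 13 with 1 library left out. Leaving out female libraries changes only the spread and the adjustment here. For the other settings the cause was not tested.

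For the difference of the responses 0 members were called. The number was 3 without the 2 libraries, 4 with edgeR without them, 3 with DESeq2, 6 with inserts 4 to 6 alone and 14 with array quality weights, and ran from 0 to 2 with 1 library left out. In air 19 members, Kif17 included, were higher in female cultures, 10 with inserts 1 to 3 alone, 31 with array quality weights, and 16 to 24 with 1 library left out. The cause was not tested.

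The labels do not say whether insert numbers pair the samples, and so few inserts cannot settle it. Same-numbered smoke and air inserts deviated from their group means with correlations of -0.21 to 0.37 in female and -0.24 to 0.12 in male cultures, and 2 of 12 pairs correlated best with their own number. With the number as a block the calls were 30 in female smoke, 10 in male smoke, 0 for the difference and 22 in air. A mean of at least 50 removed Kif17 from the tests.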

Other observations

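Of 10 tested genes of Hedgehog signalling, which in mammals passes through primary cilia, 4 fell in male smoke, where 12.2% of all tested genes fell. Among the 4 were the transcription factor Gli2 and the ciliary membrane proteins Evc and Evc2. In female smoke 1 of the 10 fell (19.3% of all genes). Over 22 libraries 6 fell in male smoke (24.7%) and 2 in female smoke (23.8%). None of the 10 was called higher under smoke.

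Gli2 ran from 41.6 to 72.9 (median 53.7) in male air and from 15.0 to 23.7 (median 18.5) in male smoke with no overlap, and changed by -1.47 ± 0.42 (SE, adjusted p = 0.0156). In female cultures it ran from 10.6 to 76.0 (median 54.9) and from 5.99 to 47.1 (median 37.7) with overlap, at -0.62 ± 0.42 (SE, adjusted p = 0.272) over 24 libraries, and it fell over 22 libraries, by 0.60 ± 0.21 on the log2 scale (adjusted p = 0.0251). Evc changed by -0.77 ± 0.15 (SE, adjusted p = 0.00121) in male cultures and stood at 0.36 ± 0.15 (SE, adjusted p = 0.0731) in female cultures. The difference between the culture sets, female minus male, was 1.13 ± 0.22 (SE, adjusted p = 0.012) for Evc and 0.85 ± 0.60 (SE, adjusted p = 0.616) for Gli2. Evc2 changed by -0.55 ± 0.19 (SE, adjusted p = 0.0377) in male cultures, with 0.10 ± 0.19 (SE, adjusted p = 0.729) in female cultures.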
